A study of Mus musculus with 6 samples.

Results

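Carbonic anhydrases interconvert carbon dioxide and water with bicarbonate and protons, and the transcripts of 9 of them (Car2, Car3, Car4, Car8, Car10, Car11, Car12, Car13 and Car14) were followed here across 3 mouse cell populations. Members were all probe sets, the array's groups of short probes for 1 transcript, whose only platform gene symbol was one of these names. There were 20 such probe sets, 13 on chip A and 7 on chip B, of 45137 probe sets and 18193 genes in all. One population held mature olfactory sensory neurons (OSNs), sorted by fluorescence from OMP-GFP mice, in which GFP stands in for the coding region of the olfactory marker protein gene. Another was the olfactory epithelium from which those neurons had been taken (residual epithelium, or residual cells), and the last was brain of the same mouse line with the olfactory bulbs left out. The labels put the RNA at about 500000 sorted cells and about 2500000 residual cells, and state neither age, sex, background strain nor the number of animals. All 3 populations therefore carry the GFP allele, and no animal without it was measured. Each population was hybridised to 1 array of each chip, so no ratio below has a replicate check, no test across samples was possible and no p-value is given.

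The family works in different compartments. Car2, Car3 and Car13 are cytosolic enzymes, Car4 is tied to the outer membrane face by a lipid anchor, and Car12 and Car14 span the membrane with the catalytic part outside the cell. Car8, Car10 and Car11 are relatives that lack residues needed to hydrate carbon dioxide and are known as binding proteins. In the nose, Car2 is known from a small class of sensory neurons that detect carbon dioxide through bicarbonate and guanylyl cyclase D. In red blood cells, glia and the choroid plexus the enzymes carry carbon dioxide and drive ion and fluid transport.

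Signals are in the arrays' arbitrary units and can be compared between populations for 1 probe set, not between probe sets. The lower quartile of a chip's 3 arrays (70.6 for chip A, 79.9 for chip B) served as a floor, which replaced any smaller signal before log2 ratios were formed, and folds that rest on it carry the words "at least". Genes entered a comparison, or were counted, if the larger of the signals compared was at or above the chip median (222 for chip A, 244 for chip B), and were called from 2-fold. Of the 20 member probe sets, 11 reached the chip median in at least 1 population and 5 lay below the floor in all 3. Of the 15 with a signal at or above the floor somewhere, brain held the highest signal for 10, OSNs for 3 and residual epithelium for 2, where brain was highest for 37.1% of all 38698 such probe sets. Several of the 10, among them both Car4 probe sets, were at or above the floor in brain alone. That fixes their direction, so nothing is read from this count. As a check of the labels, Omp read 11057 in sorted OSNs, 249 in the residual cells and 201 in brain (1422200_at). Its other probe set (1422199_at) read 17.5, 28 and 19.4, below the floor in all 3, and so does not bear on the check. Probe sets present on both chips gave log2 ratios that differed between chips with an SD of 0.25 for OSNs over residual epithelium, 0.29 for OSNs over brain and 0.34 for residual epithelium over brain (99 probe sets). Between different probe sets of a gene the SD was 0.88, 1.12 and 1.11 for these comparisons. These spreads do not stand for the spread between animals.

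**Figure D1:**
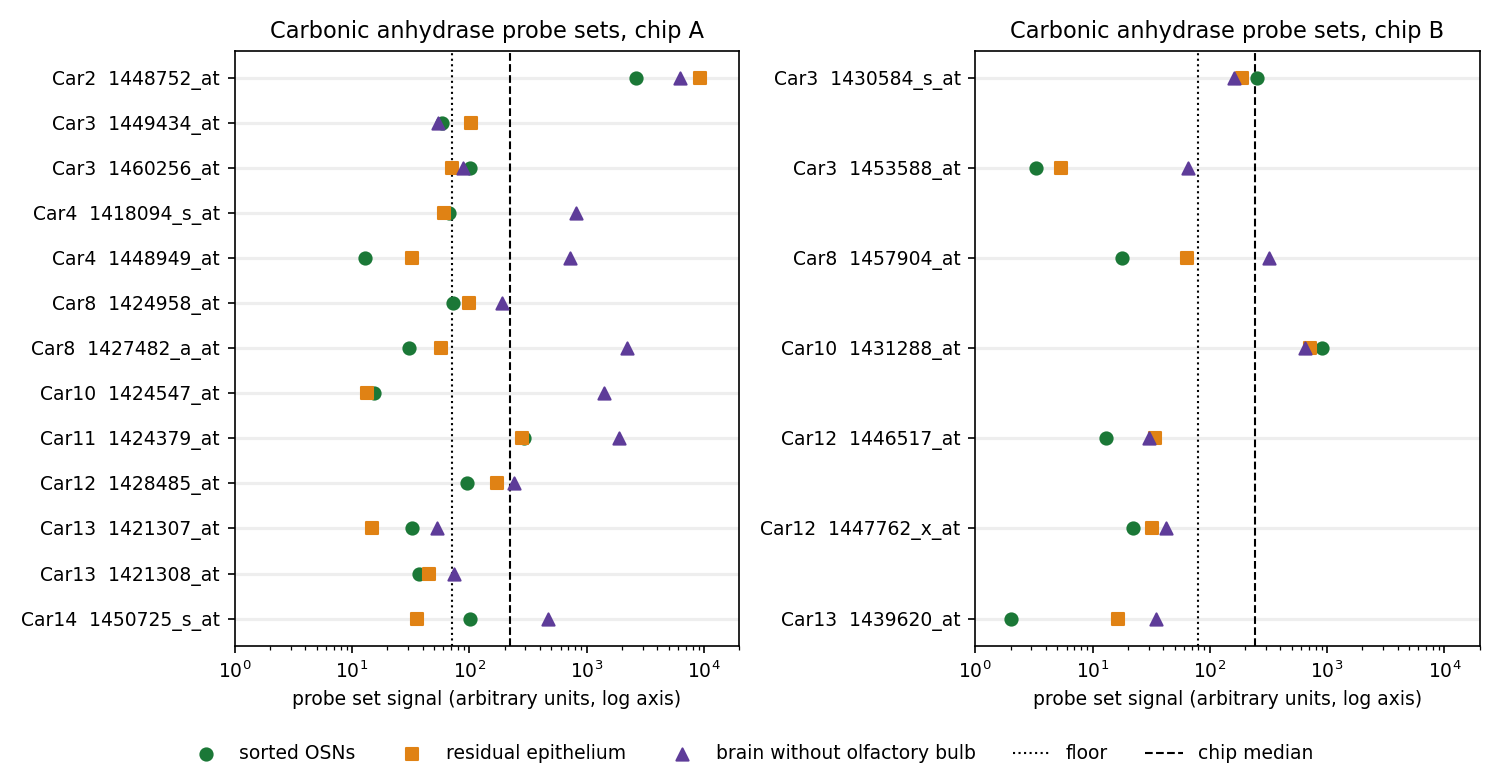
Signal (arbitrary units, log axis) of each of the 20 carbonic anhydrase probe sets in sorted OSNs (circles), residual epithelium (squares) and brain (triangles), 1 array per point, with the floor (dotted) and the chip median (dashed). Car2 is above the chip median in all 3 populations, and 7 probe sets of Car4, Car8, Car10, Car11 and Car14 pair a brain signal above the median with signals at least 2-fold lower in both nasal populations. Among all 28605 probe sets that reached the chip median, 13.4% did so. Of the 7, 6 reached it in brain alone, which fixes their direction, and the other Car10 probe set goes against the one among them.

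Car2, the fast cytosolic enzyme, lay above the chip median in all 3 populations. OSNs had a signal of 2633, residual epithelium one of 9244 and brain one of 6269 (1448752_at, the only probe set for this gene). The residual epithelium was highest and the sorted neurons lowest. Car2 was 3.51-fold lower in OSNs than in residual epithelium (log2 ratio -1.81) and 2.38-fold lower than in brain (-1.25). Both differences exceeded the SD between chips and that between probe sets of a gene. Residual epithelium over brain was 1.47-fold (0.56), which is above the SD between chips and below that between probe sets. In mixed tissue, fewer cells of a type and less RNA per cell cannot be told apart, and this holds for each residual and brain value here.

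Markers of other Car2-bearing cells differed between the same arrays. The summed signal of 7 erythroid genes on chip A was 545 in OSNs, 10927 in the residual cells and 723 in brain, with 5 of the 7 below the floor in OSNs, none in residual epithelium and 5 in brain. Alas2, which makes the heme precursor in red cells, read 16.3, 3393 and 31.1 in that order. Of 6 erythroid genes counted in OSNs over residual epithelium, 5 were lower in OSNs. Epor, the other, read 222, 372 and 348. The globin gene Hba-a1 read 46.4, 123 and 68.5, below the chip median in each population. The 8 oligodendrocyte genes on chip A summed to 3338, 7854 and 33143, with 4, 2 and 0 below the floor, and the myelin gene Mbp read 168, 198 and 11202. The 4 choroid plexus genes on chip A summed to 302, 926 and 15339, with 2, 1 and 1 below the floor. In brain Ttr alone supplied 14669 of this sum, and Otx2 was highest in residual epithelium (88.2, 507 and 17.2). The 7 genes on chip A of sustentacular cells, the supporting cells, summed to 8640, 16525 and 1584, with none below the floor. The 2 on chip B, Ermn and Muc2, summed to 2039, 1401 and 3521, again with none below the floor. Ermn is also among the oligodendrocyte genes, so the chip B sum does not stand for sustentacular cells alone. On chip A the erythroid and sustentacular sums were highest in residual epithelium and the oligodendrocyte sum in brain, while the sustentacular sum on chip B was lowest in residual epithelium. Their part in the Car2 signal was not tested.

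**Figure D2:**
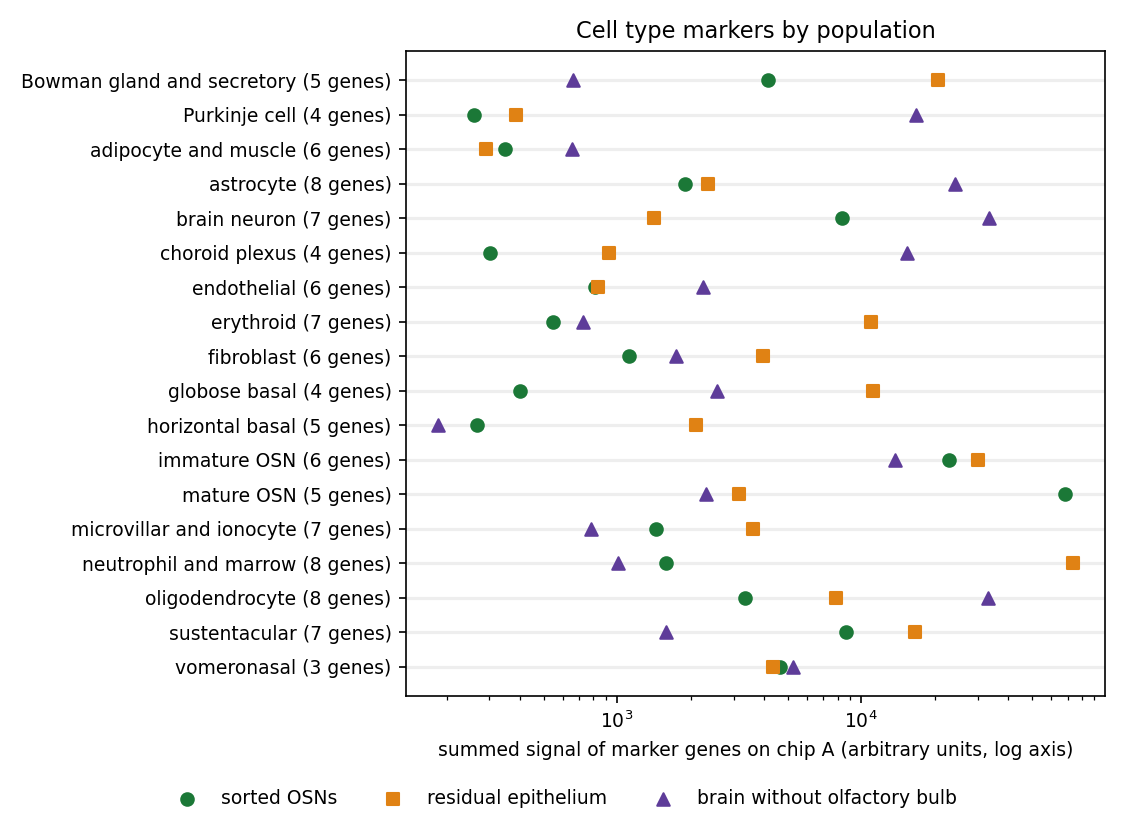
Summed chip A signal (arbitrary units, log axis) of the marker genes of 18 cell types in sorted OSNs (circles), residual epithelium (squares) and brain (triangles), 1 array per point. The erythroid sum is 545 in OSNs and 10927 in residual epithelium, and the oligodendrocyte sum is 33143 in brain against 7854 in residual epithelium.

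The membrane-bound enzymes were low in both nasal populations. For Car4, 1 probe set (1418094_s_at) read 66.8 in OSNs, 61.4 in the residual cells and 819 in brain, and the other (1448949_at) read 13.0, 32.6 and 716. Both probe sets lay below the floor in OSNs and residual epithelium and above the chip median in brain. Car4 was at least 11.6-fold and at least 10.1-fold lower in either nasal population than in brain by these probe sets. Car4 is known from the walls of brain capillaries, and the 6 endothelial genes on chip A summed to 811 in OSNs, 839 in the residual cells and 2248 in brain, with 1, 0 and 0 below the floor. The capillary tight junction gene Cldn5 read 60.7, 107 and 917, but not all of these genes followed it. Of 3 endothelial genes counted in OSNs over brain, 2 were lower in OSNs. Kdr, the other, read 277 in OSNs, 217 in the residual cells and 261 in brain. The part of endothelial cells in the Car4 signal was not tested.

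Car14 read 101 in OSNs, 36 in the residual cells and 464 in brain (1450725_s_at). Its OSN signal was above the floor and below the chip median, and its residual signal was below the floor. Car14 was 4.61-fold lower in OSNs than in brain (-2.21) and at least 6.58-fold lower in residual epithelium than in brain. Neither nasal signal reached the chip median, so the ratio between OSNs and residual epithelium was not counted. Car12 had signals of 96.2, 174 and 239 in OSNs, residual epithelium and brain (1428485_at). Brain alone passed the chip median, by a small margin. The ratio of OSNs over brain was -1.31 (2.49-fold lower) and of residual epithelium over brain -0.46. This call was lost with a floor at percentile 40 (-0.71) and with a pseudocount in place of the floor (-0.89), and Car12 was not counted after quantile normalization or with the signal filter at percentile 75. The other Car12 probe sets, on chip B, read between 13.1 and 42.7 and lay below the floor on all arrays.

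Car8, a relative without enzyme activity that binds the calcium release channel Itpr1 and is known for its abundance in cerebellar Purkinje cells, reached the chip median in brain alone. Its signal was 30.9 in OSNs, 57.8 in the residual cells and 2208 in brain (1427482_a_at), at least 31.3-fold lower in either nasal population than in brain. A probe set on chip B (1457904_at) read 17.7, 64.2 and 322, at least 4.03-fold lower. The third (1424958_at) read 73.3, 99.8 and 191, all under the chip median. Brain was highest on each probe set, and the nasal signals of the first and second lay below the floor, so they have no order. The 4 Purkinje cell genes on chip A summed to 259 in OSNs, 384 in the residual cells and 16805 in brain, with 3, 2 and 0 below the floor. The Purkinje gene Pcp2 read 22.6, 18.2 and 3035. Their part in the Car8 signal was not tested.

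Car11, a secreted relative found in neurons, read 294 in OSNs, 280 in the residual cells and 1885 in brain (1424379_at). All 3 values lay above the chip median, so the sign of its ratios does not follow from the filter. Car11 was 6.40-fold lower in OSNs (-2.68) and 6.74-fold lower in residual epithelium (-2.75) than in brain, and the nasal populations differed by 0.07. The last value is below the SD between chips, and the first pair exceeded the SDs between chips and between probe sets.

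Car10, a neurexin-binding relative of Car11, gave different answers on the chips. The chip A probe set (1424547_at) read 15.5 in OSNs, 13.3 in the residual cells and 1405 in brain, at least 19.9-fold lower in either nasal population. The chip B probe set (1431288_at) read 911, 712 and 652, all above the chip median, with log2 ratios of 0.35 for OSNs over residual epithelium, 0.48 for OSNs over brain and 0.13 for residual epithelium over brain. By the rule that takes the probe set with the highest mean signal as the gene's value, Car10 was within 2-fold in every comparison. By the median of its counted probe sets it was lower in OSNs (-1.92) and in residual epithelium (-2.09) than in brain. No direction can be given for Car10 from these arrays.

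Car3, a cytosolic enzyme of muscle and fat with low activity, and Car13 were near the limit of the arrays. One Car3 probe set passed the chip median, in OSNs (1430584_s_at), with signals of 255 in OSNs, 188 in the residual cells and 162 in brain. Its log2 ratios were 0.44 over residual epithelium and 0.65 over brain, below the SDs between probe sets of a gene. The chip A probe sets read 58.1, 103 and 53.8 (1449434_at) and 101, 71.8 and 88.1 (1460256_at), and the other chip B probe set read 3.3, 5.4 and 65.4 (1453588_at). Residual epithelium was highest on 1449434_at and OSNs on 1460256_at and 1430584_s_at, while the last probe set lay below the floor everywhere. The 6 adipocyte and muscle genes on chip A summed to 348, 292 and 652 in OSNs, residual epithelium and brain, with 4, 5 and 3 below the floor. The 2 on chip B, Ckm and Myh4, summed to 719, 855 and 514, with 1, 0 and 0 below the floor. Brain was thus highest on chip A and lowest on chip B. The fat cell hormone gene Adipoq read 15.6, 43.4 and 3.6, below the floor in each population. Car13 did not reach the chip median on any of its 3 probe sets, whose highest signal was 74.1, in brain (1421308_at). Car13 thus lay near or below the floor everywhere, which does not show that it is absent.

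In the gene table of the mouse reference GRCm38.p6, Car13, Car1, Car3 and Car2 follow one another as neighbouring coding genes on chromosome 3. Neighbours differed in signal, with Car2 above the chip median everywhere, Car1 only in residual epithelium, Car3 in OSNs by 1 probe set and Car13 nowhere.

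**Figure D3:**
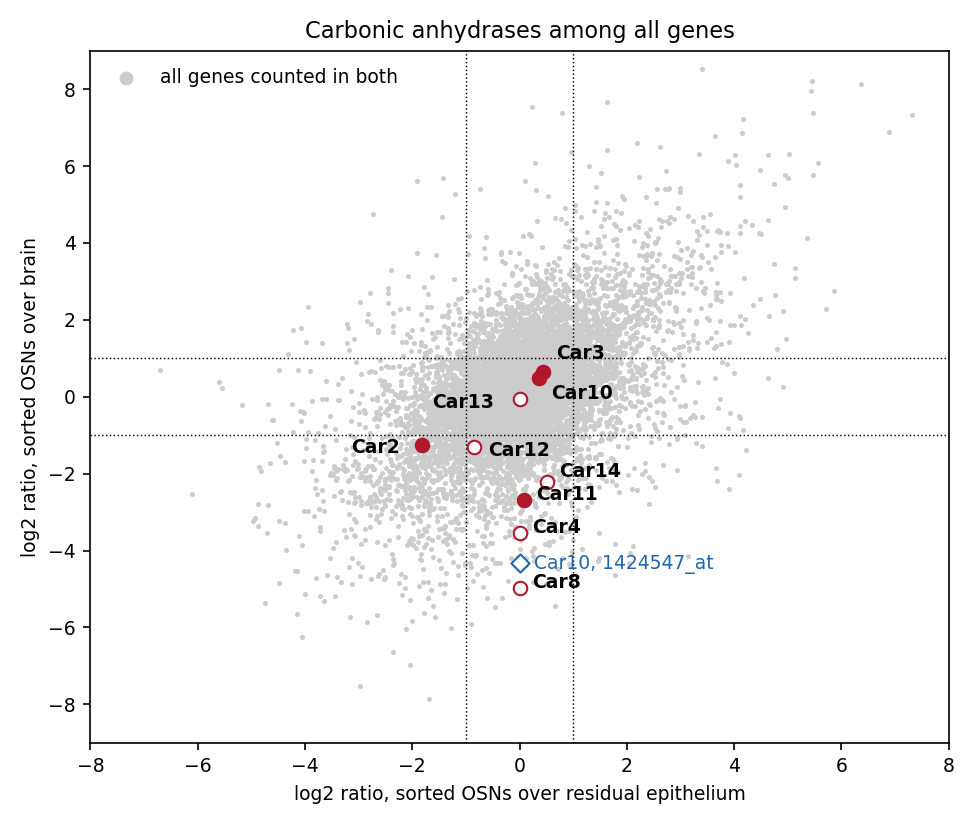
Log2 ratio of sorted OSNs over residual epithelium (horizontal axis) against OSNs over brain (vertical axis) for all genes counted in both (grey) and for the 9 carbonic anhydrases by the probe set that stands for each (red, filled where counted in both comparisons), with dotted lines at 2-fold. Car2 lies low on both axes (-1.81 and -1.25), Car11 is low against brain (-2.68) and near 0 within the epithelium (0.07), Car4, Car8, Car12 and Car14 (open) were counted against brain only, and the chip A probe set of Car10 (blue diamond) lies far from the chip B one.

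Counted once per gene, 4 of the 9 carbonic anhydrases entered the comparison of OSNs with residual epithelium, which asks which transcripts mark the mature neurons within the epithelium. Of these, Car2 was lower, none was higher, and Car3, Car10 and Car11 stayed within 2-fold. Over all 12255 genes counted there, 18.7% were lower and 12.8% were higher. The members' median log2 ratio was 0.21 and that of all genes -0.05. Both signals reached the chip median in 3 of the 4, while Car3 passed through OSNs alone, which fixes the sign of its ratio. The other 5 members reached the chip median in neither population.

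Against brain, which supplied other neurons and glia, 8 members were counted, 6 were lower in OSNs (Car2, Car4, Car8, Car11, Car12 and Car14) and none was higher. The background was 21.0% lower and 18.5% higher over 12377 genes, and the medians were -1.76 for the members and 0.05 for all genes. In 3 of the 8 (Car2, Car10 and Car11) both signals reached the chip median. Car3 passed through OSNs alone, which fixes the sign of its ratio. Car4, Car8, Car12 and Car14 passed through the brain array alone, which fixes the sign of their ratios. Neither their number nor the members' median, which Car12 and Car14 set, counts as support. Between residual epithelium and brain, 7 members were counted, with 4 lower in residual epithelium (Car4, Car8, Car11 and Car14) and none higher, beside 18.9% and 22.5% of 12917 genes. The median of all genes was 0.12, and that of the members was at or below -2.72, as Car14, which sets it, lay under the floor in residual epithelium. Both signals again reached the chip median for Car2, Car10 and Car11, and Car4, Car8, Car12 and Car14 passed through brain alone. The same limit therefore holds for the count and the median here. The brain arrays serve in both of these comparisons, so their results are not separate.

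By probe set, 7 of the 11 that reached the chip median somewhere had a brain signal at least 2-fold above both nasal populations, and they belonged to Car4, Car8, Car10, Car11 and Car14. Among all 28605 probe sets that reached the chip median, 13.4% did so. Of the 7, 6 reached it in brain alone, which fixes their direction, so nothing is read from the count, and that of Car10 is the one its other probe set goes against. For the genes of these probe sets the DNA around the annotated starts is shown where RefSeq's promoter table (GRCm38.p6) holds it, from 250 bases before to 50 bases after the start, 5′ to 3′ on the gene's strand. The table matched 5 of the 9 members, and Car2, Car3, Car8 and Car13 had no entry. Capitals mark matches on either strand to any of 6 motifs: the Sp1 box GGGCGG, the TATA box TATAAA, the cAMP response element TGACGTCA, the EBF site TCCCNNGGG of the olfactory neuron factors, and the arms TTCAGCACC and GGACAGCGC of the site of REST, a repressor of neuronal genes. In the members' windows no match overlapped one of another motif. Car4 lies at chr11:84957504-84957803 (plus strand), the second of the Car10 starts at chr11:93099040-93099339 (plus), the first of the Car11 starts at chr7:45699554-45699853 (plus) and Car14 at chr3:95904636-95904935 (minus).
Car4: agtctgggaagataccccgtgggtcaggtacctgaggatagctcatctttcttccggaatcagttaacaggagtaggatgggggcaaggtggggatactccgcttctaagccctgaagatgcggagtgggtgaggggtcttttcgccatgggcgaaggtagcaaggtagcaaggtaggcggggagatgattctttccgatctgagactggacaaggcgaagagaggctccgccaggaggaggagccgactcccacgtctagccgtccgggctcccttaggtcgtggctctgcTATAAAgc
Car10: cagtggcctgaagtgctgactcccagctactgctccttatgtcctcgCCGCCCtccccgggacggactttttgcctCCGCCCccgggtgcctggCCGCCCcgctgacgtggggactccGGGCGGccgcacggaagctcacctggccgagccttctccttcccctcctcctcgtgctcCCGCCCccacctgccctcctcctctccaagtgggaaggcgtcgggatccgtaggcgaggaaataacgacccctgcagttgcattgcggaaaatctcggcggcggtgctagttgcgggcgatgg
Car11: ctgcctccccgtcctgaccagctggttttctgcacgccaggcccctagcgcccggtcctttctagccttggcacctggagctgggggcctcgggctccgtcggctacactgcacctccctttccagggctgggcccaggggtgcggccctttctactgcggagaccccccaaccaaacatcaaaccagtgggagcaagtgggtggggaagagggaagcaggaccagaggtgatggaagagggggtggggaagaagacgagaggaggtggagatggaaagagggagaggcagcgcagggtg
Car14: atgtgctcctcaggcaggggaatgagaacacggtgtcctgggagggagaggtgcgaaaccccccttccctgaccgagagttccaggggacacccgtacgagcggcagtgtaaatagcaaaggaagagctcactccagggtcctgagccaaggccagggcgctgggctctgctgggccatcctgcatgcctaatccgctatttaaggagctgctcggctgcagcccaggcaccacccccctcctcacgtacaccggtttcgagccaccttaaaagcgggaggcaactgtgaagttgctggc

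The Car10 windows were rich in Sp1 boxes, with 5 matches in the one printed and 2 in that of its other start (chr11:93098116-93098415). The overlapping windows of the 2 Car11 starts and the Car14 window had none of the 6 motifs. An Sp1 box was present in 35.7% of all 32851 promoter windows. Car10 had 27 and 22 CG dinucleotides in its windows, Car11 11 and 13, Car14 13, Car4 15 and Car12 9, where the median over all windows was 7 and the upper quartile 20. The only TATA box lay in the Car4 window, beginning at base 43 counted from the annotated start, and 13.6% of all windows hold one. The Car12 window (chr9:66713436-66713735) held 1 Sp1 box. An EBF site match was present once, in the Car10 window that is not printed, and in 6.56% of all windows. No member's window held the cAMP response element (1.79% of all windows) or the REST left or right arm (0.371% and 0.405%). These matches describe letters in the window only.

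The remaining carbonic anhydrase genes on the arrays were Car1, Car5a, Car5b, Car6, Car7, Car9 and Car15. Car1, the other abundant red cell enzyme, read 51.9 in OSNs, 734 in the residual cells and 20.7 in brain, at least 10.4-fold lower in OSNs than in residual epithelium. Like the erythroid sum it was high in residual epithelium alone, whereas Car2 was above the chip median in all 3 populations. Car7, a cytosolic enzyme of brain neurons, read 540, 888 and 2277 (1443824_s_at), 4.22-fold lower in OSNs than in brain (-2.08). Its other probe sets read 54.2, 54.4 and 690 (1434973_at) and 56.1, 47.9 and 259 (1452484_at), with brain highest in each. Car5a, Car5b, Car6, Car9 and Car15 stayed below the chip median in every population, the highest being 219 for Car15 in brain.

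Receptor phosphatases with an extracellular carbonic anhydrase-like domain, Ptprg and Ptprz1, differed in direction. Ptprg read 5598 in OSNs, 3085 in the residual cells and 1387 in brain (1434360_s_at), 4.04-fold above brain and 1.81-fold above residual epithelium in OSNs. All 4 Ptprg probe sets had OSNs highest. Ptprz1 read 245, 171 and 1376 (1452284_at), 5.62-fold lower in OSNs than in brain, and its 3 probe sets had brain highest. Of the contactins, to which these domains bind, Cntn4 read 4033, 616 and 95.3, 6.54-fold above residual epithelium and 42.3-fold above brain. Cntn1 read 477, 478 and 7483, 15.7-fold lower in OSNs than in brain. Cntn3 (at least 6.57-fold) and Cntn6 (at least 5.51-fold) were also lower in OSNs than in brain, and Cntn5 was below the chip median throughout.

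Nrxn2 and Nrxn3, presynaptic partners of Car10, varied by probe set. Nrxn2 read 883, 880 and 3917 in OSNs, residual epithelium and brain (1435907_at), 4.44-fold lower in OSNs than in brain. For Nrxn3 the brightest probe set (1439629_at) read 3775, 3876 and 4871, within 2-fold, while 1456137_at read 7, 10.3 and 5261. No probe set named Itpr1 alone. Of the 8 genes counted in this group of phosphatases and binding partners, 2 were higher and 5 lower in OSNs than in brain, and both signals reached the chip median in 5. Against residual epithelium 1 of 6 was higher and none lower (median 0.26), with both signals at the chip median in 5. The shares of all genes given above (12.8% higher and 18.7% lower than in residual epithelium, 18.5% and 21.0% against brain) are the background for this and the following groups, and a gene that passed the filter in 1 population alone has its sign fixed by it.

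Bicarbonate transporters carry what the enzymes make. Of 11 counted, 1 was higher and 3 were lower in OSNs than in residual epithelium (median 0.14), and of 13 counted against brain, 1 was higher and 3 were lower (median -0.21). Both signals reached the chip median in 6 of the 11 and 6 of the 13. Slc4a4, the sodium bicarbonate cotransporter, read 6985 in OSNs, 728 in the residual cells and 7668 in brain (1434096_at), 9.60-fold above residual epithelium and close to brain (-0.13). Its chip A probe set 1452071_at read 1123, 152 and 1169, the same order. Slc4a4 and Car2 thus differed in opposite directions between OSNs and residual epithelium. Slc26a6, an anion exchanger, was at 0.86 over residual epithelium. Slc4a1, the red cell chloride bicarbonate exchanger, read 52.8, 4264 and 43.8, at least 60.4-fold lower in OSNs than in residual epithelium. Slc26a7, an anion exchanger, read 650, 1428 and 140 (1436279_at), 2.20-fold lower than in residual epithelium and 4.64-fold higher than in brain, and its chip A probe set stayed below the chip median. Slc4a8 was at 0.97 over brain. Slc4a10 and Slc4a3, transporters of brain neurons, were at least 39.3-fold and at least 24.6-fold lower in OSNs than in brain.

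**Figure D4:**
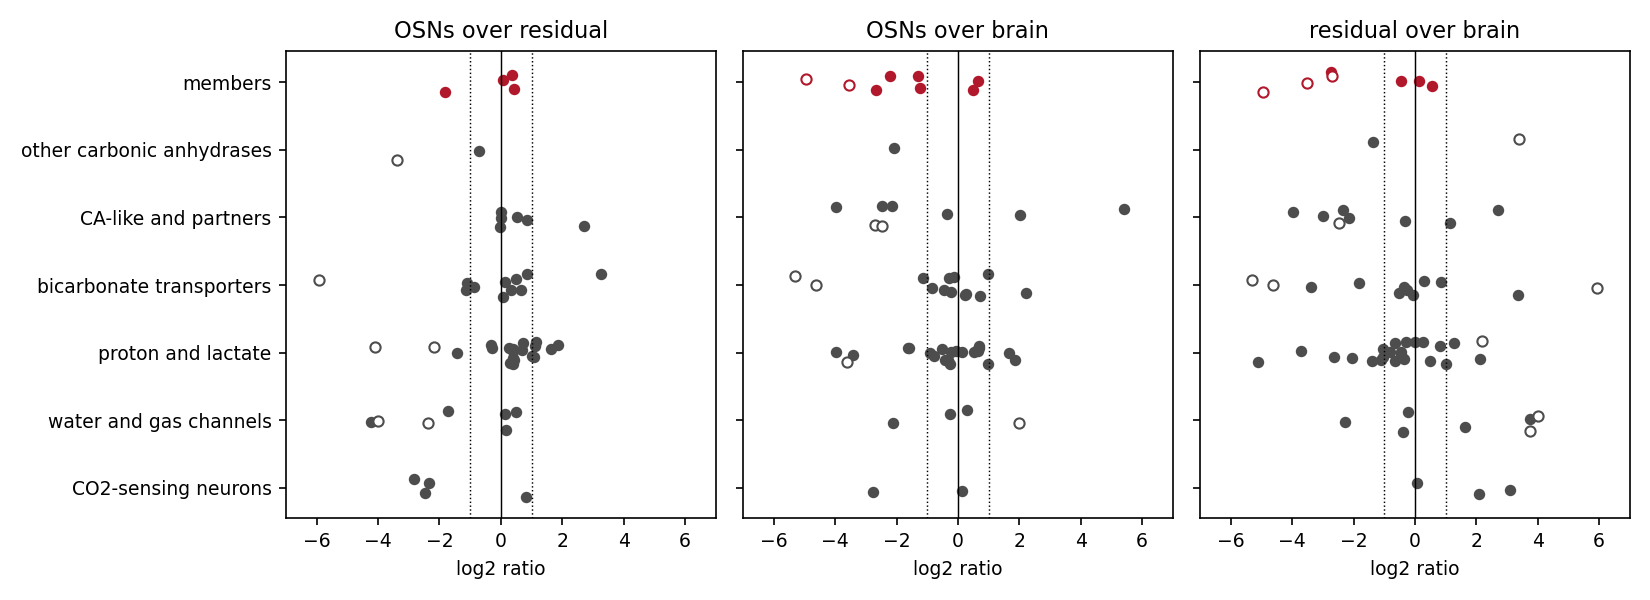
Log2 ratio of each counted gene, 1 probe set per gene, for the carbonic anhydrases (red) and 6 groups of related genes (grey) in the 3 comparisons, with dotted lines at 2-fold and open symbols where the lower signal was at the floor. Within the epithelium Slc4a4 (3.26) stands at the high end of the bicarbonate transporters and Slc4a1 (-5.92) at the low end.

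Among proton and lactate carriers, 6 of 21 were higher and 3 lower in OSNs than in residual epithelium (median 0.40), and 2 of 22 were higher and 5 lower than in brain (median -0.24). Both signals reached the chip median in 18 of the 21 and 17 of the 22. Slc9a9 and Slc9a7, sodium-proton exchangers of internal membranes, were 3.64-fold and 3.11-fold higher than in residual epithelium, with Slc9a9 signals of 1480 in OSNs, 406 in the residual cells and 408 in brain. Slc16a1, a lactate and proton carrier, read 33.5, 1214 and 862 (1415802_at), at least 17.2-fold lower in OSNs than in residual epithelium and at least 12.2-fold lower than in brain. The proton channel gene Hvcn1, known from white blood cells, was at least 4.51-fold lower than in residual epithelium. Emb, a partner of lactate carriers, was in OSNs 3.20-fold above brain, and the proton pump subunit Atp6v1g2 was 15.6-fold lower.

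Water and gas channels were lower in OSNs than in residual epithelium for 4 of 7 and higher for none (median -1.73), and against brain 1 of 4 was higher and 1 lower (median 0.02). Over all genes 18.7% were lower and 12.8% higher than in residual epithelium, and of the 4 lower channels 1 had both signals at the chip median, while the other 3 passed through residual epithelium alone. Aqp1, a water channel of red cells and other tissues, read 110, 2054 and 151, 18.7-fold lower in OSNs than in residual epithelium. Rhag, a red cell gas channel, read 30.0, 1125 and 5, at least 15.9-fold lower. Car1, Slc4a1, Aqp1 and Rhag, all known from red cells, were thus high in residual epithelium alone. The erythroid sum, whose part was not tested, was also high there alone (10927 against 545 in OSNs and 723 in brain). Slc4a1 (4264 in residual epithelium) and Rhag (1125) are among the 7 genes of that sum, so their pattern is not separate from it. Aqp6 and Aqp4 were at 0.51 and 0.15 over residual epithelium by the probe sets that stand for them, but both other Aqp4 probe sets, on chip A, were lower in OSNs (-1.33 and -1.83). Against brain Aqp4 was 4.33-fold lower, Aqp3 at least 4.02-fold higher, and Aqp6 and Aqp11 were at 0.30 and -0.25.

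Of the genes tied to carbon dioxide sensing, 3 of 4 counted were lower in OSNs than in residual epithelium (median -2.41), beside 18.7% of all genes. Pde2a alone had both signals at the chip median, and Ms4a1 and Ms4a7 passed through residual epithelium alone, which fixes their sign. Pde2a, the phosphodiesterase of the guanylyl cyclase D neurons that also use Car2, read 1148 in OSNs, 8121 in the residual cells and 7810 in brain (1447707_s_at), 7.07-fold lower than in residual epithelium and 6.80-fold lower than in brain. A second probe set (1452202_at) read 79.1, 512 and 1557, and the third (1447708_x_at) differed by 0.17 between the nasal populations. Ms4a1 and Ms4a7, the other lower genes, were 5.12-fold and 5.51-fold lower in OSNs and are also known from B cells and macrophages. Adcy10, the adenylyl cyclase that bicarbonate activates, was at 0.82 over residual epithelium and 0.12 over brain. No probe set named Gucy2d, Cnga3 or Gucy1b2 alone, so the defining genes of these neurons were not followed.

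By a fixed measure of likeness, the distance between pairs of log2 ratios (OSNs over residual epithelium and over brain) on the same chip at a similar mean signal, Car2 was nearest to the splicing factor gene Srsf2 (distance 0.095) and to Nrep (0.44), over 3 populations and 429 candidate genes. Srsf2 read 1530, 5494 and 3424 in OSNs, residual epithelium and brain. Car11 was nearest to C1ql3 (0.17), which reads 233, 197 and 1496, and to the phosphodiesterase gene Pde1b (0.18). Car3 was nearest to Pcdhb15 (0.053) and 9330198I05Rik (0.055), and the chip B probe set of Car10 to Gm11110 (0.014) and Pigs (0.017). With 3 populations such nearness is a description only.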

How the data were processed

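RNA from sorted OSNs, residual epithelium and brain was measured on 1 array each of chips A and B. The deposited values are probe set signals, a single-colour intensity on a linear scale. Per the submitters' processing notes they were made with MAS5, which the notes name for 5 of the 6 arrays (brain on chip A lacks it). For the version and the detection calls, the sources used here give nothing. The trimmed means were alike (499.604 to 499.874), so the authors had scaled every array to a common level. This fixes each array's mean, so amounts per cell cannot be compared.

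Control probe sets (64 per chip) were left out. Of 45137 probe sets, 35041 had 1 symbol, 936 several and 9160 none, and 34980 single symbols were in the GRCm38.p6 RefSeq gene table. Where a gene had several probe sets, the one ranking highest on its chip by mean log2 signal stood for it. The computation was tested on simulated arrays. The members and the lists were chosen with earlier results of these data known. Named genes were all members, all other carbonic anhydrases and partners, the 2 highest and 2 lowest ratios of each other list against residual epithelium and against brain, marker genes counted beside a member, and the 2 nearest genes by likeness. Gene-level probe sets also named to show disagreement were chosen after their values were seen. Alternatives were floors at percentile 10 and 40, a pseudocount, no filter or one at percentile 75, quantile normalization, median centring, the median over probe sets and a 3-fold call. Scripts ran under Python 3.11.15 with pandas 2.3.3, numpy 2.4.6 and, for plots, matplotlib 3.10.9. The planned protein comparison was not made, as no protein sequences were used here.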

Additional observations from a re-analysis of the deposited data

How the results depend on the processing

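The count of carbonic anhydrases lower in OSNs than in residual epithelium was 1 under all 9 alternatives, with none higher in any comparison. Against brain the count lower in OSNs ranged from 4 to 7 and the count lower in residual epithelium from 3 to 5, both highest where a gene's probe sets were combined by their median, which adds Car10. Of 162 member ratios under the alternatives, 142 moved by less than the SD between chips, 20 moved by more, and no called ratio changed sign. A change of filter or of the fold call leaves a ratio as it is, so those settings could not move any. Car10, not called in the main setting, did change sign with the median over probe sets. It went from 0.48 to -1.92 in OSNs over brain and from 0.13 to -2.09 in residual epithelium over brain. Ratios against the floor moved with it, Car8 in OSNs over brain from -4.97 to -6.16 with a floor at percentile 10 and to -3.91 at percentile 40. Genes higher in OSNs than in residual epithelium over all 6 groups of related genes numbered 8, but 5 with a pseudocount and 4 with the 3-fold call. No paired analysis was possible because each group had 1 array. The number of arrays limits the precision, and low signals cannot be told from background.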
